A study of Mus musculus with 10 samples.

Results

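Promoter contacts of Npm1c haematopoietic stem and progenitor cells (HSPCs) were set against those of WT HSPCs. The comparison was defined by the sample labels and used 4 of the 10 libraries of the series, 2 per group, over 88421 fragment pairs on autosomes and X out of 88624 listed pairs. The Npm1c mice carried the genotype Npm1flox-cA/+;Mx1-Cre+, and the reference mice were labelled WT. Both groups were C57BL/6 mice, and the cells were bone marrow lineage negative cells from femurs and tibias, enriched with a depletion kit. The 2 libraries of a group are labelled as biological replicates. Age, sex, the time since the Npm1 allele was switched on, and whether the WT mice carried Mx1-Cre are not stated in the labels. Cre under the Mx1 promoter responds to interferon and acts in other cells besides HSPCs, and a lineage-depleted fraction is a mixture of stem cells and several kinds of progenitor. The files hold contacts and no RNA levels, so the cell type could not be checked against marker levels, and a change in contacts per cell cannot be told apart from a change in the mix of cells. The remaining libraries were Flt3-ITD HSPCs, double-mutant (DM) HSPCs and WT neutrophils.

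Nucleophosmin, the product of Npm1, is an abundant chaperone of the nucleolus that takes part in ribosome assembly and centrosome duplication and holds the Arf tumour suppressor. The cA mutation adds a nuclear export signal, so that the protein gathers in the cytoplasm, and myeloid leukaemias with this mutation are known for high expression of HOXA and HOXB genes and of MEIS1. Promoter-capture Hi-C joins DNA fragments that lie close together in the nucleus and then selects the joined fragments that hold a promoter. Here the chromatin of marrow cells was cut with HindIII, and 39684 probes captured 22047 promoters, per the labels' protocols. A captured fragment is called the bait, and the fragment it was joined to is called the other end.

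Each pair has 1 interaction score per library, as the authors deposited it. The score is never negative, is neither a count nor a ratio, and its reference is not given in the sources used here. A pair is in the list only where it scored at least 5 in both libraries of at least 1 HSPC group. A difference between Npm1c and WT is therefore enlarged by the listing wherever one of these groups brought the pair in. Pairs that Flt3-ITD or DM HSPCs brought in, 66628 in all, are called outside pairs, because their listing did not need the scores compared here. Both of these groups are mutant, and the double mutant carries Npm1c together with Flt3-ITD. Outside pairs can therefore still favour contacts that are high with Npm1c, and they are not free of the listing. The Npm1c libraries had median scores of 5.10 and 5.60, and the WT libraries 5.18 and 4.75. A score of exactly 0 was listed for 2.91% and 1.42% of pairs in the Npm1c libraries and for 2.95% and 3.28% in the WT libraries. The depth of the libraries is unknown.

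The promoters of Mad2l1, Kif11 and Fgfbp3 anchor the contact blocks described below, and their sequences are given first. RefSeq promoter windows (GRCm38.p6) run from 250 bases before the start of the gene to 50 after it. Capitals mark 2 motifs searched in the windows, the HindIII site AAGCTT, which sets the edges of every bait, and the CCAAT box (CCAAT, or ATTGG for the other strand). Of 32817 promoter windows of 300 bases, 7.46% held the HindIII letters and 37.4% held a CCAAT box. The windows of Mad2l1 (chr6:66534971-66535270, plus strand) and Fgfbp3 (chr19:36919550-36919849, minus strand) lie wholly inside their baits. The Kif11 window (chr19:37376132-37376431, plus strand) holds a HindIII site at base 80, and 220 of its bases lie in the Kif11 bait.
Mad2l1: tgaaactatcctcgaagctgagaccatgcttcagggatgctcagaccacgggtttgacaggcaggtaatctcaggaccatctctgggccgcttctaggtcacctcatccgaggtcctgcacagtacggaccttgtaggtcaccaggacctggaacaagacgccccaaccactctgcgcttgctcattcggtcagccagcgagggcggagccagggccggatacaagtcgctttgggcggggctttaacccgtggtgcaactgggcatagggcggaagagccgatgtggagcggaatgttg
Kif11: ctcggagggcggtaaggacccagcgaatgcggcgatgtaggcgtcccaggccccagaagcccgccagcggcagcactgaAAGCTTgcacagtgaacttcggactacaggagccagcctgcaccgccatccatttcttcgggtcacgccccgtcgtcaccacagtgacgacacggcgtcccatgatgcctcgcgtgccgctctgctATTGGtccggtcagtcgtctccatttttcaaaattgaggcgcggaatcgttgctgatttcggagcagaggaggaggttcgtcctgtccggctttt
Fgfbp3: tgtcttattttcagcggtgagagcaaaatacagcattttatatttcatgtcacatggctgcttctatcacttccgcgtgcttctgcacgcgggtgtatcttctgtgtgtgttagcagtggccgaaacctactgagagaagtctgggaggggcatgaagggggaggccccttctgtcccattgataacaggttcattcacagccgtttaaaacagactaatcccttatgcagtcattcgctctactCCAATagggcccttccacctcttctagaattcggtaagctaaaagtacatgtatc
The Kif11 and Fgfbp3 windows each hold 1 CCAAT box, and the Mad2l1 window holds none.

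Npm1c HSPCs carried 36950 pairs at 5 or more in both libraries, and WT HSPCs carried 30834. Of these, 14950 were common to both groups, which is 40.5% of the Npm1c set and 48.5% of the WT set. A pair is called gained here when both Npm1c libraries were at 5 or more and both WT libraries were below 5, and lost when the reverse held. By this rule 9441 pairs were gained, 10.7% of all listed pairs, and 6571 were lost, 7.43% of all listed pairs. Of the gained pairs 27.0% were at 5 or more in both Flt3-ITD libraries and 19.2% in both DM libraries, against 14.3% and 15.4% of the lost pairs. After quantile normalization the order of the counts turned, with 6634 gained and 7695 lost.

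The share of listed pairs at 5 or more was 51.8% and 61.5% in the Npm1c libraries and 53.4% and 46.9% in the WT libraries. The groups overlap, and the means of 56.6% ± 6.83 in Npm1c and 50.2% ± 4.56 in WT (SD, n = 2 each) differed by 6.45 percentage points (exact permutation test, two-sided, p = 0.667). With 2 libraries per group this test cannot give a p below 0.33. Within the 14950 pairs common to both groups, the Spearman correlation was 0.47 between the Npm1c libraries and 0.39 between the WT libraries, against 0.36 to 0.48 between libraries of different groups. Over all 88421 listed pairs it was 0.49 within Npm1c and 0.48 within WT, against 0.29 to 0.35 between groups. The listing itself raises agreement within a group here, because it asks for 5 or more in both libraries of a group. Over the 66628 outside pairs the correlation was 0.50 within Npm1c and 0.48 within WT, against 0.45 to 0.50 between groups, which overlap. These correlations are across pairs, which share libraries and neighbouring fragments.

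Gained pairs outnumbered lost pairs at long range and not at short range. Under 100 kb, 7.80% of 16797 listed pairs were gained and 7.83% were lost. From 100 to 500 kb, 10.5% of 58829 pairs were gained and 7.38% lost. From 500 kb to 1 Mb, 15.2% of 8189 pairs were gained and 7.60% lost, and from 1 to 10 Mb 15.2% of 4093 pairs were gained and 6.16% lost. The share of pairs between 500 kb and 1 Mb that reached 5 was 43.7% and 54.0% in the Npm1c libraries, against 38.9% and 33.5% in the WT libraries. Here the groups do not overlap, and the difference of 12.7 points had the smallest p the exact permutation test allows (p = 0.33). The share was 57.2% and 59.3% in the Flt3-ITD libraries and 56.3% and 56.3% in the DM libraries, so the WT libraries had the lowest shares of all HSPC libraries. Under 100 kb the shares were 56.1% and 67.2% in Npm1c and 64.1% and 56.6% in WT, which overlap. Among outside pairs, which mutant groups brought in, 3380 were gained and 1579 lost. Of these, 15.8% of the gained and 10.8% of the lost pairs spanned over 500 kb, beside 14.1% of all outside pairs. Of 83 pairs between chromosomes, 32 were gained and 1 was lost, and 27 of the 83 belong to the Mad2l1 bait described below.

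**Figure D1:**
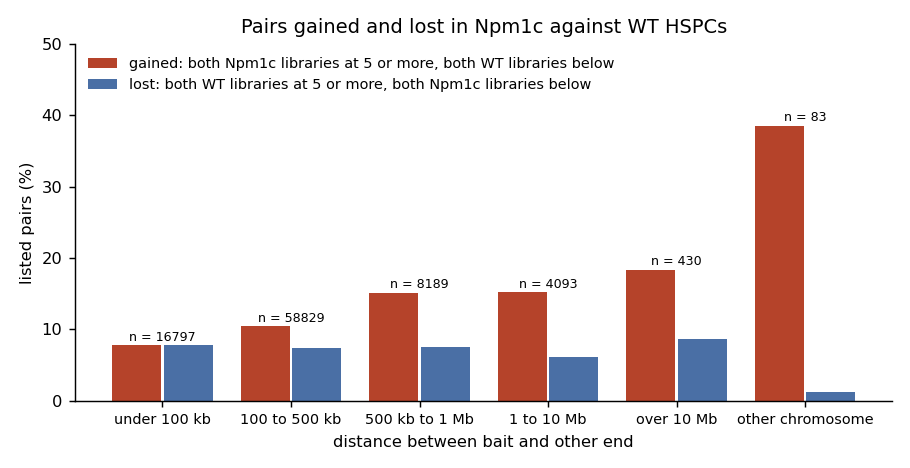
Percentage of listed pairs gained (red) and lost (blue) in Npm1c against WT HSPCs, by the distance between bait and other end; the number above each pair of bars is the number of listed pairs. The bars are level under 100 kb (7.80% gained, 7.83% lost), and the gained bar is the taller one in every longer class.

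Contacts between promoters were set against contacts of a promoter with other DNA. A pair is called promoter to promoter here when its other end is itself a listed bait, which held for 20329 pairs. Among these, the Npm1c libraries had 53.6% and 61.5% at 5 or more and the WT libraries 64.9% and 59.8%. Among the 68092 pairs with any other end, the shares were 51.2% and 61.4% in Npm1c and 49.97% and 43.1% in WT. Promoter-to-promoter shares exceeded other contacts by 2.38 and 0.0609 percentage points in the Npm1c libraries and by 14.9 and 16.7 points in the WT libraries. The mean gap was 1.22 ± 1.64 points in Npm1c and 15.8 ± 1.30 points in WT (SD, n = 2 each), a difference of -14.6 points with no overlap (exact permutation test, p = 0.33, the smallest possible). The difference was -7.82 points when pairs were counted at 3 or more and -1.82 points at 10 or more. Over outside pairs alone the gap was 7.61 and 4.65 points in Npm1c and 15.0 and 17.3 points in WT. Between 100 and 500 kb alone it was 3.37 and 0.488 points in Npm1c and 16.1 and 17.6 points in WT. The gap was 2.92 and -1.48 points in the Flt3-ITD libraries and 8.76 and 8.55 points in the DM libraries, so the WT libraries had the widest gap of the 8. This split was chosen after the values had been seen. In counts, 1338 promoter-to-promoter pairs were gained and 2063 lost, against 8103 gained and 4508 lost among the other pairs. A contact between 2 baits can be listed from either side, so these pairs are not all separate contacts.

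**Figure D2:**
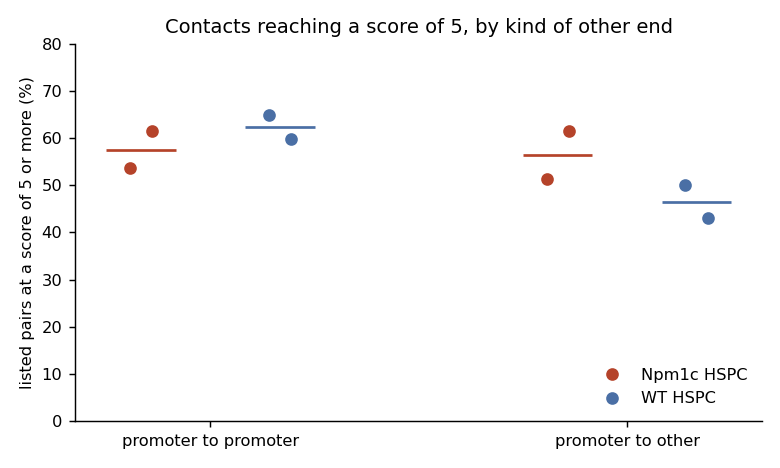
Percentage of listed pairs at a score of 5 or more in each library, for promoter-to-promoter pairs (left) and pairs with any other end (right); points are libraries and lines are means of 2. The Npm1c libraries (red) have about the same share of both kinds, and the WT libraries (blue) lie 14.9 and 16.7 points higher for promoter-to-promoter pairs.

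Of the chromosomes, X was examined separately. Of 1455 listed X pairs, 178 were gained and 241 lost, against 9263 gained and 6330 lost of the autosomal pairs. The X share at 5 or more was 52.7% and 60.5% in the Npm1c libraries and 59.8% and 61.6% in the WT libraries, which overlap. A stretch beside Gata1, described below, held 84 of the 241 lost and 19 of the 178 gained pairs. Relative to the autosomes, the X share stood at 0.937 and -0.917 percentage points in the Npm1c libraries and at 6.504 and 14.9 points in the WT libraries. It stood at -15.1 and -14.3 points in the Flt3-ITD libraries and at -21.8 and -16.2 points in the DM libraries. A value below WT was thus not particular to Npm1c, which lay nearest to WT of the mutant groups. The sex of the mice is not stated, and its part in this was not tested.

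Hox and Meis1 baits came next, because these genes are the known targets of Npm1c leukaemia. Hox genes encode homeodomain factors that hold blood cells in an immature state when expressed at high level, and Meis1 encodes their DNA-binding partner. Baits were listed for 15 fragments of the HoxA cluster, the HoxB cluster and Meis1, with 126 pairs between them. Of these pairs, 45 were at 5 or more in both Npm1c libraries and 16 in both WT libraries. Of the 126 pairs 16 were gained (12.7%, beside 10.7% of all pairs) and 4 were lost (3.17%, beside 7.43%). Per library, 61 and 70 of the pairs reached 5 in Npm1c, against 59 and 23 in WT. The WT libraries differed from each other by more than the nearest libraries of the 2 groups did. In the Flt3-ITD libraries 72 and 80 of the 126 pairs reached 5, and in the DM libraries 95 and 102. Both Flt3-ITD counts lay above both Npm1c counts, so a count above WT was not particular to Npm1c here. Most of the 126 were outside pairs, so the listing favoured high scores in Flt3-ITD or DM HSPCs.

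At the HoxA cluster 28 and 33 of 49 pairs reached 5 in the Npm1c libraries, against 23 and 11 in the WT libraries. The Flt3-ITD libraries had 23 and 27 there, below Npm1c, and the DM libraries had 34 and 39. Of the 49 pairs, 23 joined HoxA baits to a stretch about 1 Mb away (chr6:51167210-51212855), where the RefSeq table places no gene over the listed fragments. In that stretch 16 and 21 pairs reached 5 in the Npm1c libraries, against 13 and 4 in the WT libraries, and 5 pairs were gained and 1 lost. The stretch was singled out after its values had been seen. Hoxa11 (chr6:52243161-52253347), a posterior HoxA gene, had 7 of 10 pairs at 5 or more in both Npm1c libraries and 1 in both WT libraries, with 4 gained and 0 lost. The bait shared by Hoxa3 and Hoxa7 (chr6:52213061-52222146) had 12 of 23 pairs at 5 or more in both Npm1c libraries and 5 in both WT libraries, with 3 gained and 0 lost. Hoxa6 went the other way with 1 pair in Npm1c and 2 in WT, of 7, as did Hoxa13 with 0 in Npm1c and 1 in WT, of 2.

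A single Hox pair passed the test across all pairs. Hoxa10 (chr6:52240053-52242369), a homeodomain gene active in early progenitors, met chr6:51199258-51199555, in the same distant stretch, at scores of 5.31 and 6.95 in the Npm1c libraries, and was listed at 0 in both WT libraries. The difference was 2.83 log2 units (SE 0.33, limma, adjusted p = 0.016). Flt3-ITD libraries were also listed at 0, and the DM libraries had 1.95 and 3.34. The pair was therefore listed through the Npm1c libraries alone, which had to score at least 5 in it. The Hoxa11 bait scored 16.1 and 26.2 in Npm1c and 11.6 and 7.08 in WT with the fragment chr6:51180767-51183201, a difference of 1.10 that did not pass (adjusted p = 0.34). One pair went against this direction from outside the cluster: Tax1bp1, an autophagy receptor gene, met a fragment inside Hoxa3 (chr6:52174760-52177869) at 0 and 0 in Npm1c and at 9.41 and 6.59 in WT (difference -3.15, SE 0.41, adjusted p = 0.027), a pair picked after its values were seen. This pair was listed through the WT libraries alone.

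HoxB baits contacted fragments inside Skap1, an adaptor gene downstream of the cluster, in 69 of 72 listed pairs. Of those 69 pairs, 30 and 33 reached 5 in the Npm1c libraries and 34 and 11 in the WT libraries, so the groups overlap. The Flt3-ITD libraries had 44 and 48 of them at 5 or more, and the DM libraries 54 and 55. Hoxb8 (chr11:96278714-96281905) had 10 of 32 pairs at 5 or more in both Npm1c libraries and 2 in both WT libraries. Hoxb7 had 6 of 13 in Npm1c and 0 in WT, and Hoxb9 had 2 of 14 in Npm1c and 4 in WT. Meis1 (chr11:19017037-19021316) had 3 of 5 pairs at 5 or more in both Npm1c libraries and 0 in both WT libraries. Meis1 reached 5 in 4 and 4 of its pairs in the Flt3-ITD libraries and in 5 and 5 in the DM libraries. Its pair with chr11:18873311-18873583, 146 kb away, scored 7.34 and 6.79 in Npm1c and 3.68 and 0.879 in WT, a difference of 1.44 that did not pass (adjusted p = 0.39). The 3 Hox baits with enough outside pairs for a promoter test had differences of 0.56 (SE 0.26) at Hoxa3 and Hoxa7, 0.33 (SE 0.25) at Hoxb7 and 0.28 (SE 0.25) at Hoxb8, and none passed. Of the 10 Hox and Meis1 baits with 4 or more listed pairs, 5 had a higher share at 5 or more in both Npm1c libraries than in either WT library, and 0 had the opposite. Over all 6436 baits of that size, 25.8% had the first pattern and 11% the second. Hoxa9, Hoxb4 and Pbx3 had no listed bait and were not analysed here.

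**Figure D3:**
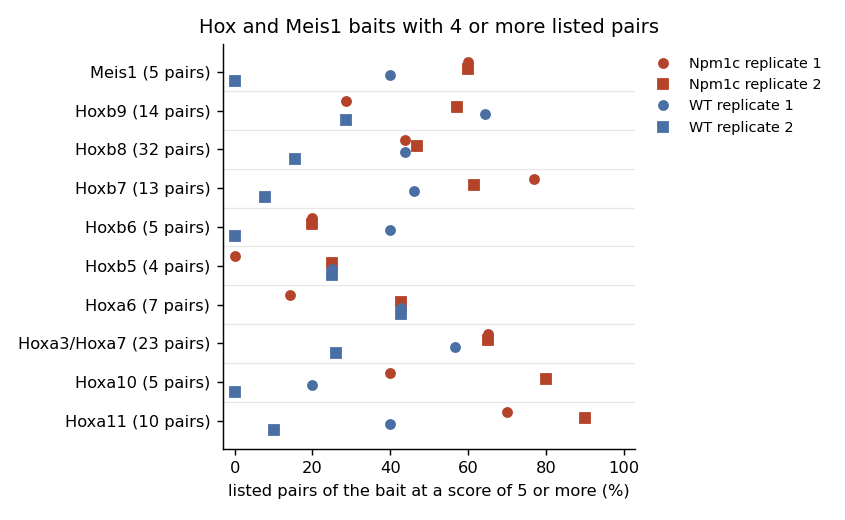
Percentage of each Hox or Meis1 bait's listed pairs at a score of 5 or more in the 2 Npm1c (red) and 2 WT (blue) libraries; only baits with 4 or more listed pairs are drawn. At Hoxa3 with Hoxa7, Hoxa10, Hoxa11, Hoxb7 and Meis1 both Npm1c libraries lie right of both WT libraries, and WT replicate 2 is the lowest point at most baits.

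Single pairs were tested by limma over all 88421 pairs, on log2 of the score plus 1, with the 8 HSPC libraries in 1 fit and p-values adjusted over all pairs. In Npm1c against WT HSPCs 199 pairs were higher, 0.225% of the pairs tested, and 75 were lower, 0.0848% of the pairs tested. After quantile normalization 150 were higher and 98 lower. The calls were mostly far contacts. Pairs over 10 Mb or between chromosomes made up 21.2% of the calls and 0.58% of the list. The median distance was 1.80 Mb for the higher and 1.69 Mb for the lower pairs, against 218 kb for all pairs. In 134 of the 199 higher pairs both WT libraries were listed at 0, and in 52 of the 75 lower pairs both Npm1c libraries were. Neither Flt3-ITD nor DM HSPCs reached 5 in any library at 200 of the 274 called pairs. Outside pairs made up 45 of the 199 higher and 10 of the 75 lower pairs, beside 75.4% of all listed pairs. The other called pairs were listed only through the groups compared here, so the listing itself asked for high scores in 1 of them. Over the outside pairs alone no pair was called (limma, 5900 at an unadjusted p under 0.05), and no pair was called in a fit of the 4 libraries alone (8788 unadjusted) or without any 1 of the 4 libraries (8364 to 11824 unadjusted).

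Some called contacts were listed from both of their ends. Of the 274 called pairs, 18 had their reverse pair in the list, and 16 of those reverse pairs were called too. These are largely the same contacts counted from either side in the same libraries, and neither side is independent support for the other. Brix1 and Rad1, a ribosome assembly gene and a DNA damage checkpoint gene on 1 bait, met the Mtdh bait 23.6 Mb away at 9.90 and 10.9 in Npm1c and 0.319 and 0.212 in WT. From the Mtdh side the scores were 10.5 and 10.6 in Npm1c and 0.179 and 0.334 in WT. Rrp15, a ribosome biogenesis gene, met the Odr4 and Tpr bait 36.4 Mb away at 10.1 and 10.6 in Npm1c and at 0 in both WT libraries (difference 3.51, SE 0.28, adjusted p = 0.012), and from the Tpr side at 9.99 and 9.52 in Npm1c. Tpr is a protein of the nuclear pore basket. Trappc12, a vesicle tethering gene, met Ldah, 20.5 Mb away, at 7.98 and 8.26 in Npm1c and at 0 in both WT libraries. In these named pairs the Flt3-ITD and DM libraries were at 0.

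Among the 12 pairs with the largest positive difference, genes of the cell cycle and DNA repair stood beside genes of other kinds. Ttk, a kinase of the spindle checkpoint, met a fragment in Ibtk 1.88 Mb away at 16.3 and 15.9 in Npm1c and at 0 and 0.944 in WT (difference 3.62, SE 0.46, adjusted p = 0.024). It also reached 7.42 and 10.9 in the Flt3-ITD libraries. The bait of Rad51c, a homologous recombination gene, and Tex14 met a fragment in Rdm1 14.2 Mb away at 24.8 and 10.4 in Npm1c and at 0 in both WT libraries (difference 4.10, SE 0.43). That pair scored 15.0 and 10.5 in the Flt3-ITD libraries and 0 in both DM libraries. Erap1, an aminopeptidase gene of antigen trimming, met the neighbouring gene Cast at 10.96 and 10.6 in Npm1c and at 0 in WT, 174 kb apart. Flt3-ITD libraries had 2.63 and 7.41 in that pair, and both DM libraries 0. H3c2, a histone H3 gene, met another fragment of the histone cluster 1.97 Mb away at 6.39 and 17.8 in Npm1c and at 0 in WT. There the Flt3-ITD libraries had 2.13 and 1.56 and the DM libraries 4.90 and 8.41. The remaining pairs were 2 of Mad2l1, 1 of Rrp15, and 1 each of Cadm4, Dnaaf1 with Taf1c, Mroh2a, Zfp334 and Akr1c14, with differences of 3.50 to 5.11 log2 units.

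Of the 12 pairs with the largest negative difference, 5 had an other end in Hjurp, the chaperone gene of centromeric histone, on chromosome 1. These were the pairs of Tcea1, Mcm3, Atp6v1h, Ptp4a1 and the Rdh10 and Rpl7 bait. The pairs of Kif11 and Fgfbp3, described below, also belong to the 12. Klri1, an NK cell receptor gene, met a fragment 1.70 Mb away at 0 in both Npm1c libraries and at 8.14 and 16.4 in WT (difference -3.65, SE 0.41, adjusted p = 0.015), with 7.04 and 3.75 in Flt3-ITD and 7.12 and 7.01 in DM libraries. Tsg101, a gene of endosomal sorting, was at 0 in Npm1c and at 7.89 and 11.02 in WT with a fragment 1.98 Mb away. Nwd1 met chr5:49750582-49756767 on another chromosome at 0 in Npm1c and at 15.0 and 14.1 in WT, the 1 lost pair between chromosomes.

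Chromosome 1 held nearly all contacts over 50 Mb. Of 160 such pairs, 158 joined the first 30.9 Mb of chromosome 1 to a stretch near 88 Mb that holds Mroh2a and Hjurp, and 68 of them belong to the Mroh2a bait. Per library, 63 and 75 of these pairs reached 5 in Npm1c and 51 and 64 in WT, so the groups overlap. Of the pairs 24 were gained and 21 lost, beside 10.7% and 7.43% of all pairs, and 7 were called higher and 12 lower, beside 0.225% and 0.0848%. Only 6 were at 5 or more in both libraries of both groups, of 43 in Npm1c and 35 in WT. A single fragment, chr1:88276241-88278577 in Hjurp, was the other end of 6 pairs, all called lower. It was listed at 0 in all 6 Npm1c, Flt3-ITD and DM libraries in every one of these pairs, and at 6.69 to 44.9 in the WT libraries. Each of the 6 pairs was thus listed through the WT libraries alone, so WT had to be high in them and their shared direction is no separate support. Tcea1, an elongation factor gene, had the highest of these scores, 22.4 and 44.9 in WT. Mcm3, a subunit of the replicative helicase, was at 32.7 and 11.99 in WT. Whether a fragment at 0 throughout was absent from those libraries was not tested. Leaving out every other end listed at 0 in both libraries of a group in all its pairs left 109 higher and 38 lower pairs.

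The Mad2l1 bait (chr6:66534905-66540307) showed the strongest scores in the comparison. Mad2l1 encodes Mad2, which holds back the anaphase-promoting complex until every chromosome is attached to the spindle. Of its 33 listed pairs, 27 lay on chromosome 11, over 580 kb (chr11:46130282-46709935) that includes Dppa1 and Timd2. The scores formed a peak at chr11:46658914-46659335, with 258 and 508 in the Npm1c libraries and 46.9 and 0 in the WT libraries, and fell on both sides of it. In the Npm1c libraries 26 and 27 of the 27 pairs were at 5 or more, against 9 and 0 in the WT libraries. WT replicate 1 followed the same outline at a lower level, with 13 of the 27 pairs above 0 and up to 55.8. WT replicate 2 was listed at 0 in all 27. The peak fragment scored 243 and 136 in the Flt3-ITD libraries and 170 and 88.2 in the DM libraries, so the contact was not restricted to Npm1c.

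Of the 27 pairs 5 passed the test. None of these 5 was an outside pair. They were listed through the Npm1c libraries alone, so Npm1c had to be high in them. With chr11:46622012-46624447 in Dppa1 the Npm1c libraries scored 32.2 and 35.2 and both WT libraries were at 0 (difference 5.11, SE 0.65, adjusted p = 0.024). With chr11:46600469-46610014 they scored 12.7 and 20.1, again with 0 in both WT libraries (difference 4.09, SE 0.32, adjusted p = 0.012). The peak fragment itself did not pass (adjusted p = 0.20), with WT libraries at 46.9 and 0. The 6 pairs of Mad2l1 on its own chromosome stayed low, with 3 and 4 of 6 at 5 or more in Npm1c and 1 and 1 in WT. Neighbouring fragments on chromosome 11 share 1 bait and are not separate observations.

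**Figure D4:**
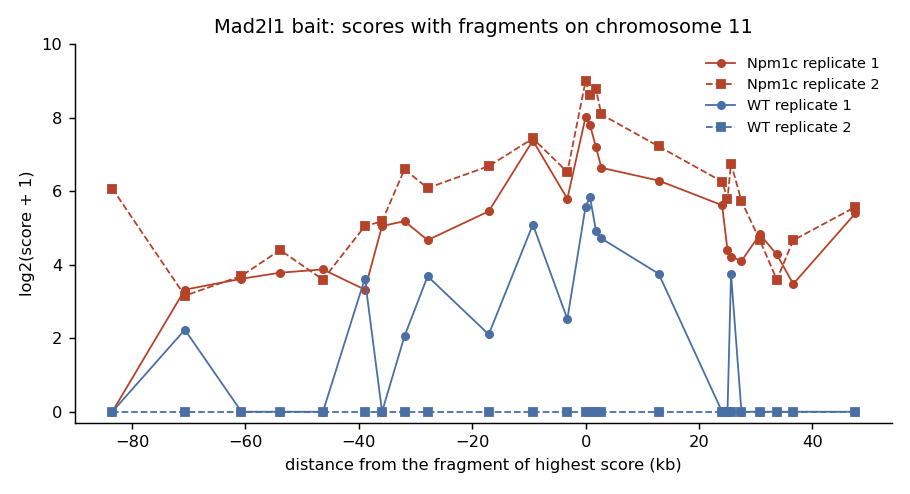
Scores of the Mad2l1 bait with fragments on chromosome 11, as log2 of the score plus 1, against the distance from the fragment of highest score; 2 fragments farther than 100 kb are not drawn. Both Npm1c libraries (red) peak at 0 kb and lie above WT replicate 1 (blue circles) at nearly all fragments, while WT replicate 2 (blue squares) is at 0 throughout.

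Kif11 and Fgfbp3 lie in a block of contacts where most listed pairs were lost. Kif11 encodes the kinesin that pushes spindle poles apart, and Fgfbp3 encodes a carrier of fibroblast growth factors. Their baits lie 458 kb apart on chromosome 19. All 14 listed pairs of Fgfbp3 were lost, and so were 5 of 6 pairs of Kif11. The pair of Kif11 with the fragment beside Fgfbp3 (chr19:36912558-36916622) scored 0.401 and 0 in the Npm1c libraries and 23.4 and 34.6 in the WT libraries (difference -4.64, SE 0.60, adjusted p = 0.027). On the Fgfbp3 bait, the pair with chr19:37377007-37378584 in Kif11 scored 0 and 1.10 in Npm1c and 22.1 and 30.3 in WT (difference -4.21, SE 0.45, adjusted p = 0.012). Both calls are with fragments next to the other gene's bait and are not the same contact. The pair of the Kif11 and Fgfbp3 baits themselves did not pass from either side. Its difference was -3.83 from Kif11 (limma, adjusted p = 0.15) and -3.27 from Fgfbp3 (adjusted p = 0.17).

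Neighbouring fragments gave like values. Counting every pair between chr19:36910759-37021411 and chr19:37202912-37385337, 61 pairs on 6 baits were listed, among them Btaf1 and the bait of Cpeb3 and Marchf5. Median scores were 1.84 and 2.34 in the Npm1c libraries and 6.88 and 10.7 in the WT libraries. Both WT libraries exceeded both Npm1c libraries in 56 of the 61 pairs, beside 16.7% of all pairs. Of the 61 pairs 49 were lost and 1 was gained, and 2 were called lower. No pair of the block was at 5 or more in both libraries of Flt3-ITD or DM HSPCs, where the medians were 2.001 to 2.23. The WT neutrophil list held 17 of them. Since 59 of the 61 pairs were listed through the WT libraries, WT had to be high in them, and the windows were drawn after the values had been seen.

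**Figure D5:**
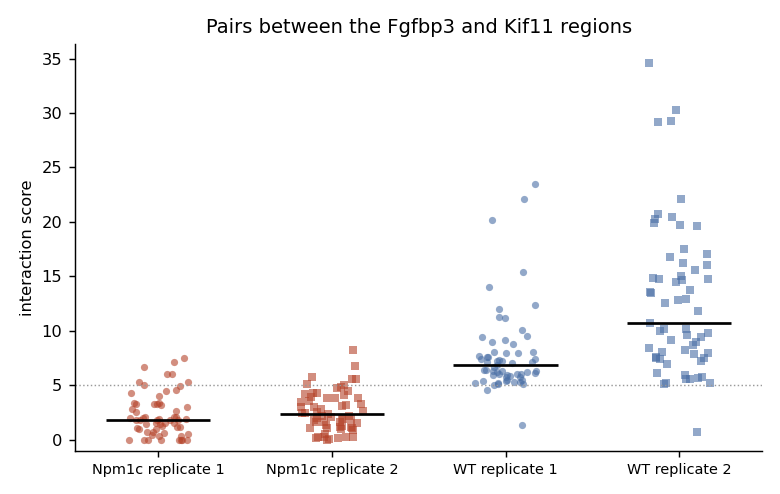
Interaction scores of the 61 pairs between the Fgfbp3 and Kif11 regions in each library; points are pairs, black lines are medians and the dotted line is a score of 5. The Npm1c medians are 1.84 and 2.34 and the WT medians 6.88 and 10.7.

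Each bait with 10 or more outside pairs was summarised by their average on the log2 scale, and these averages were tested. Outside pairs were brought in by mutant groups, which can favour pairs that are high in mutants. Of 1960 promoters, 3 were higher, 0.153% of those tested, and 0 were lower in Npm1c HSPCs (limma, 97 higher and 6 lower at an unadjusted p under 0.05). The median over all tested promoters was 0.15 log2 units above 0, and 0.01 after quantile normalization, where no promoter passed (98 unadjusted). The 3 were Mad2l1, Fat4 and Plk2. Mad2l1 had means of 4.53 and 5.63 in the Npm1c libraries and 2.95 and 0.27 in the WT libraries, a difference of 3.47 (SE 0.44, adjusted p = 8.54e-06). Of its 17 outside pairs 13 are the chromosome 11 contacts. The difference came to 2.13 when WT replicate 2 was left out and to 4.81 when WT replicate 1 was. The call was lost without Npm1c replicate 2 (adjusted p = 0.064) and with the 8 libraries in 1 fit (adjusted p = 0.12).

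Fat4, a large cadherin that acts in planar cell polarity, had means of 2.44 and 2.56 in Npm1c and 0.74 and 1.38 in WT (difference 1.44, SE 0.26, adjusted p = 0.0032). Of its 14 listed pairs, 8 were at 5 or more in both Npm1c libraries and 0 in both WT libraries. Of these, 13 met a stretch about 1.5 Mb away, with no gene of the RefSeq table over the other ends. The one with the highest Npm1c mean, with chr3:40395376-40395872, scored 16.0 and 18.9 in Npm1c and 4.51 and 5.63 in WT. Plk2, a kinase of centriole duplication and the stress response, had means of 2.67 and 2.67 in Npm1c and 1.31 and 1.70 in WT (difference 1.17, SE 0.25, adjusted p = 0.031). With chr13:111241776-111242567, 847 kb away, it scored 8.78 and 9.16 in Npm1c and 0 and 1.91 in WT. The single pairs of Fat4 and Plk2 did not pass the pair test. Flt3-ITD and DM libraries had means of 2.37 to 3.05 at Fat4 and 2.58 to 3.10 at Plk2. The Plk2 call was lost without any 1 of the 4 libraries (differences of 0.97 to 1.37, limma, adjusted p = 0.061 to 0.34). The Fat4 call was lost without either Npm1c library or WT replicate 1 (differences of 1.12 to 1.501, adjusted p = 0.054 to 0.22) and kept without WT replicate 2 (1.76). In each such fit, and in those of Mad2l1, the group left with 1 library is assumed to vary like the other. Below the threshold, the next promoters by p-value included Ccng1, a cyclin induced by p53 (0.93, SE 0.28, adjusted p = 0.30), and Aptx, a DNA end repair gene (0.82, SE 0.25, adjusted p = 0.32).

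Baits that gained or lost many pairs were counted without a test. Most pairs were gained at Mad2l1 and Mroh2a (18 each), and at the histone bait of H2ac10, H3c8 and H4c8 (15). Aptx gained 14, Dmkn, Zfp322a and the histone bait of H2ac11 and H4c9 gained 13 each, Trappc12 12, and Saysd1 and Sgk3 11 each. Aptx had 30 of 40 pairs at 5 or more in both Npm1c libraries and 8 in both WT libraries, with 14 gained and 0 lost. Dmkn, an epidermal secreted protein gene, had 42 of 96 in Npm1c and 8 in WT. The 2 histone baits and Zfp322a lie in the histone gene cluster of chromosome 13. There, 731 pairs spanned over 1 Mb, and 68 of them were gained and 37 lost, 9.30% and 5.06%, beside 10.7% and 7.43% of all pairs. In these pairs 49.7% and 77.8% were at 5 or more in the Npm1c libraries and 58.5% and 55.0% in WT, so the libraries of Npm1c stood on either side of WT.

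Most pairs were lost at the bait of Pqbp1 and Timm17b (20), followed by Tor4a (15), Fgfbp3 (14), Styk1 (14), Dennd6b with Plxnb2 (13) and the bait of Armc5 and Tgfb1i1 (12). Ctrl, Eras, Net1, Nrarp, Sbf1 and the bait of Lmntd2 and Rassf7 lost 10 each. Styk1 also gained 10 pairs, so gains and losses fell on the same bait. Several of these baits are neighbours. Pqbp1 and Eras lie beside Gata1, the master factor of red cells and platelets, on X. Of 324 pairs with both ends in chrX:7722912-8206974, 84 were lost and 19 gained, and 50.6% and 61.1% reached 5 in the Npm1c libraries against 77.2% and 84.3% in the WT libraries. The shares in this stretch were 31.2% to 40.7% in the Flt3-ITD and DM libraries. Only 107 of the 324 pairs were outside pairs, and 232 were at 5 or more in both WT libraries and 133 in both Npm1c libraries, so the listing itself favoured high WT scores there. At Gata1 itself 5 of 6 pairs were at 5 or more in both WT libraries and 1 in both Npm1c libraries, with 3 lost. Of these 6 pairs 0 were outside pairs. On chromosome 2, Nrarp, a Notch feedback gene, and Tor4a lie close to Grin1. Of 386 pairs within chr2:25000354-25502672, 69 were lost and 21 gained, with 42.0% and 48.4% at 5 or more in Npm1c and 64.0% and 57.0% in WT. The Flt3-ITD libraries had 51.6% and 46.4% there, and the DM libraries 62.2% and 70.5%. In both stretches the Npm1c and WT libraries do not overlap, and both were picked after their values had been seen.

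The gene lists were read against all pairs, of which 10.7% were gained and 7.43% lost, and against the median promoter difference of 0.15. Genes of the mitotic spindle and checkpoint had 32 of 141 pairs gained (22.7%) and 13 lost (9.22%). Mad2l1 held 18 of the 32, and Kif11 5 of the 13. In this list 8 pairs were called higher and 1 lower, beside 0.225% and 0.0848% of all pairs, and 5 of the 8 are pairs of the Mad2l1 bait. Mad2l1 and Plk2 are the list's called promoters, described above. Besides Mad2l1, Ttk and Kif11, the members with a called pair were Pttg1 and Anapc1. Pttg1, the securin that keeps separase idle, met a fragment in Ccng1 2.68 Mb away at 7.98 and 6.99 in Npm1c and at 0 in WT (difference 3.08, SE 0.31, adjusted p = 0.012). This pair scored 7.45 and 8.59 in the Flt3-ITD libraries and 0 and 0.373 in the DM libraries. Anapc1, a subunit of the anaphase-promoting complex, met a fragment in Acoxl at 5.02 and 6.82 in Npm1c and at 0.0364 and 0 in WT (difference 2.75, SE 0.33, adjusted p = 0.020). Espl1, which encodes separase itself, had 1 of 10 pairs at 5 or more in both Npm1c libraries and 6 in both WT libraries, with 3 lost.

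Replication and G1-to-S genes had 18 of 190 pairs gained and 14 lost. Mcm3 held the only called pair, and the 6 tested promoters ran from -0.09 at Ccnd1, which encodes cyclin D1, to 0.56 at Ccne2, which encodes cyclin E2. The p53 and Arf list had 25 of 188 pairs gained (13.3%) and 9 lost (4.79%). Ccng1 met an unnamed bait 2.62 Mb away at 8.73 and 4.84 in Npm1c and at 0.266 and 0 in WT (difference 2.74, SE 0.37, adjusted p = 0.032). Scores were higher still in the Flt3-ITD libraries (10.3 and 14.9) and the DM libraries (11.4 and 12.2). From the side of the unnamed bait the pair scored 2.27 and 1.13 in Npm1c and 0 in both WT libraries. That reverse pair did not pass (difference 1.40, limma, adjusted p = 0.19). Myc, the growth regulator, had 8 of 28 pairs at 5 or more in both Npm1c libraries and 2 in both WT libraries, with 5 gained and 0 lost, and its promoter difference of 0.75 did not pass (adjusted p = 0.69). Nuclear export and import genes had 13 of 100 pairs gained and 2 lost. In this list 71 and 78 of the pairs were at 5 or more in the Npm1c libraries and 53 and 66 in WT. Rangap1, the GTPase activator of Ran, had 15 of 17 pairs in Npm1c and 9 in WT (promoter difference 0.68, SE 0.25, adjusted p = 0.68). The called pair of the list is that of Tpr, and Nup98 had the lowest promoter difference (0.02). Nucleolar and ribosome biogenesis genes had 7 of 121 pairs gained and 12 lost. Their tested promoters ran from -0.43 (SE 0.25) at Nop9 to 0.32 (SE 0.25) at Rrn3, a factor of RNA polymerase I, and none passed.

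Menin and MLL complex genes had 12 of 71 pairs gained (16.9%) and 3 lost (4.23%), with 1 promoter tested, Aff1, at 0.02. Leukaemia-mutated chromatin regulators had 7 of 82 gained and 6 lost, with Ep300 at 0.07 and Eed at 0.19. Cohesin and its regulators had 1 of 73 pairs gained (1.37%) and 7 lost (9.59%). In that list 57.5% and 78.1% of pairs reached 5 in Npm1c and 80.8% and 68.5% in WT, which overlap. Pds5a, a cohesin release factor, lost 5 of 30 pairs and gained 1, and its promoter difference was -0.0031 (SE 0.25), beside -0.0045 at the bait of Mau2.

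Blood lineage lists were taken as a view on the mix of cells. Stem and progenitor genes had 18 of 159 pairs gained and 10 lost. Mecom, a stem cell transcription factor, met a fragment inside its own locus 420 kb away at 5.54 and 8.46 in Npm1c and at 0.531 and 0.494 in WT (difference 2.38, SE 0.33, adjusted p = 0.036), and the tested promoters ran from -0.30 at the bait of Lyl1 to 0.80 at Mycn (SE 0.25, adjusted p = 0.34). Early granulocyte and monocyte genes had 7 of 93 gained and 12 lost, with Elane, the neutrophil elastase gene, at -0.02 and Cd33 at 0.12. Elane held 8 of the 12 lost pairs: of its 20 listed pairs, 7 and 7 reached 5 in the Npm1c libraries, against 15 and 16 in the WT libraries. Its promoter value rests on outside pairs alone. Mature neutrophil genes had 11 of 96 gained and 4 lost, with S100a9 at 0.24 and Mmp8 at 0.10. Erythroid genes had 11 of 170 gained (6.47%) and 18 lost (10.6%). Car2, a red cell carbonic anhydrase, lost 6 of 48 pairs and gained 1. The erythroid promoters tested were -0.05 at Klf1, -0.02 at the bait of Trim10 and 0.21 at Car2. Megakaryocyte genes had 8 of 45 gained and 4 lost, with the bait of Gp1ba at 0.48. B lineage genes had 2 of 24 gained and 0 lost, and T and NK lineage genes 12 of 89 gained and 4 lost, with 1 Cd4 bait at 0.26 and the other at -0.08. Macrophage and dendritic genes had 7 of 64 gained and 5 lost, with Ccr2 at 0.02 and Clec9a at 0.07, basophil, eosinophil and mast genes 2 of 14 and 0, and marrow stroma and vessel genes 2 of 11 and 0. No promoter of a lineage list passed, and contacts alone do not measure the share of a cell type.

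Of the lists tied to signalling and background, interferon response genes, which the Mx1-Cre design makes relevant, had 13 of 168 pairs gained and 13 lost. Their promoters ran from -0.11 at Ifitm3 to 0.41 at Ddx58, the RIG-I sensor gene. RTK, RAS and STAT signalling genes had 15 of 152 gained and 9 lost, with all 5 tested promoters above 0, up to 0.54 (SE 0.26) at Egr3, and none passed. Over all tested promoters 74.7% were above 0. Neural genes, taken as genes of another tissue, had 2 of 42 pairs gained and 11 lost (26.2%). Grin1, in the chromosome 2 stretch above, and Neurog2 lost 5 each. Housekeeping genes had 12 of 210 gained and 16 lost, a gained share of 5.71%. Their promoters ran from -0.19 at the bait of Tubb5 to 0.45 at Tbp. Eef2, the translation elongation factor, on a bait shared with Dapk3, met the Elane bait at 0 and 0.207 in Npm1c and at 7.88 and 5.69 in WT (difference -2.81, SE 0.32, adjusted p = 0.016).

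The targeted gene gave no contact readout of its own. Npm1 (chr11:33152498-33164142) had no listed bait. Within 2 Mb of it 18 baits were listed with 82 pairs, of which 7 were gained (8.54%) and 4 lost (4.88%), and none was called (limma, 10 at an unadjusted p under 0.05). The median difference of these pairs was 0.15. Snrnp25, a gene of the minor spliceosome, had 10 of 12 pairs at 5 or more in both Npm1c libraries and 5 in both WT libraries, and Insyn2b had 5 of 9 and 3. The alpha-globin bait of Hba-a1 had 2 of 3 pairs in Npm1c and 3 in WT. The fragment over Npm1 was the other end of 1 listed pair, that of Pank3, a coenzyme A synthesis gene 2.61 Mb away. It scored 0 and 4.88 in the Npm1c libraries and 0 in both WT libraries, which did not pass (adjusted p = 0.50), and 6.29 and 9.65 in the DM libraries.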

How the data were processed

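Promoter-capture Hi-C was deposited as fragment pairs with 1 interaction score per library and the distance between the fragments, another quantity in bp, per the file headers. The build was mm10, per the submitters' processing notes. The aligner and the interaction caller are not given in the sources used here. The deposited score was used as it stands, with no counts and no depth. Genes were assigned to the bait that holds their promoter start, or else a gene end, in the RefSeq table of GRCm38.p6. This gave 9748 of 12170 baits a gene. Tests over pairs and over promoters used limma 3.58.1 under R 4.3.3 (log2 of score plus 1, eBayes, two-sided, Benjamini-Hochberg at 0.05), and single measures per library by an exact permutation test in scipy 1.17.1. The pair fit used the 8 HSPC libraries and the promoter fit the 4 compared. The fits were tested on simulated data with normal spread, without the listing rule and without pairs held at 0. Those simulations therefore do not cover calls that rest on the listing or on scores of 0. Left out were 203 pairs on Y or unplaced sequence. The named pairs are the 12 largest called differences each way without overlap, at most 2 per bait and with a gene on the bait. Named promoters are all calls, and hubs are the 10 baits each way with ties. The members, the 23 gene lists and the rules were chosen with earlier results of these data known. Alternatives were quantile normalization, pseudocounts of 0.1 and 5, score thresholds of 3 and 10, a replicate block, a mean-variance trend, other pair sets and leaving out each library.
With 2 libraries per group, the p-values rest on few libraries. Pair p-values use the spread within groups over the 8 HSPC libraries, Flt3-ITD and DM included, drawn by eBayes towards that of all pairs. In a pair listed at 0 in both libraries of a group, that group adds no spread. Promoter p-values use the spread within the 4 compared libraries, drawn likewise towards that of all tested promoters. Some pairs and list members that these rules select are not reported here.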

Additional observations from a re-analysis of the deposited data

How the results depend on the processing

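Only 2 libraries per group and an unknown depth limit every value. Of the 274 called pairs, 0 remained in a fit of the 4 libraries alone, with a mean-variance trend, over outside pairs or without any 1 library (0 in each of the 4). The count was 1 with a mean score of at least 5, 21 with a pseudocount of 5 and 147 without other ends at 0 in a group. Quantile normalization called 248 pairs (150 higher, 98 lower) and shared 215 with the 274. Of the 3 promoters, 0 were called with quantile normalization, a pseudocount of 0.1, or at least 3 or 5 outside pairs, 1 with a mean-variance trend and 7 over all listed pairs. Without 1 library the count ran from 1 to 4, and the 4 calls without Npm1c replicate 2 were lower in Npm1c. Of 304 refitted values of the 24 named pairs 181 lost the call, and of 41 of the 3 promoters 26 did. The pairs were chosen by size and the promoters by passing the test, so their direction is no sign of stability. The share difference of 6.45 points became 0 by construction after quantile normalization and 1.62 to 11.3 without 1 library. Gained and lost pairs numbered 4380 and 2205 at a threshold of 3, 1166 and 372 at 10, and 12457 to 16738 and 8633 to 12856 without 1 library. After quantile normalization lost pairs (7695) outnumbered gained pairs (6634). The promoter-to-promoter gap, -14.6 points, was -7.82 at a threshold of 3, -1.82 at 10, -10.0 over outside pairs and -15.7 to -13.4 without 1 library. With the replicate number as a block, 192 pairs and 2 promoters were called. The labels do not say that numbers pair libraries, and deviations of same-numbered Npm1c and WT libraries correlated at -0.01. The cause of these changes was not tested.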
